A study of Cavia porcellus with 12 samples.

Results

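Cholesterol trafficking, esterification and efflux were followed through 10 genes: *STAR*, *NPC1*, *NPC2*, *LIPA*, *SOAT1*, *SOAT2*, *ABCA1*, *ABCG1*, *ABCG5* and *ABCG8*. The members were those of the 10 that had a row in the deposited log2 expression table, which lists guinea pig genes by their human symbols. This gave 9 members among 11896 listed genes. *SOAT2*, which encodes the second acyl-CoA:cholesterol acyltransferase, had no row there and was not analysed here. Expression was measured by stranded mRNA sequencing of liver from 12 female Dunkin Hartley guinea pigs, which came from a single breeder and were 10 weeks old at arrival. The control group held 6 animals kept on chow for 25 weeks, without steatohepatitis or fibrosis. The NASH (nonalcoholic steatohepatitis) group held 6 animals kept for the same 25 weeks on a high-fat diet that also contained sucrose and cholesterol, and these animals had been selected for bridging fibrosis. Diet and disease therefore cannot be told apart in this design. The tissue came from the left lateral lobe of nonperfused livers, and each animal contributed 1 library.

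Cholesterol that enters a cell in lipoproteins arrives in the lysosome as cholesteryl ester. Lysosomal acid lipase (*LIPA*) frees it, and the pair NPC2 and NPC1 hands the free sterol from the lysosomal lumen to the limiting membrane, from which it reaches the endoplasmic reticulum and plasma membrane. There, sterol O-acyltransferases (*SOAT1* and *SOAT2*) re-esterify the surplus for storage in lipid droplets, *ABCA1* and *ABCG1* export it to apolipoprotein A-I and to HDL particles, and in the liver the obligate heterodimer of *ABCG5* and *ABCG8* secretes it into bile. The steroidogenic acute regulatory protein (*STAR*) moves cholesterol into mitochondria and is best known from the adrenal gland and gonads. *ABCA1*, *ABCG1*, *ABCG5* and *ABCG8* are all textbook targets of the liver X receptors (LXR), nuclear receptors activated by oxysterols.

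Between 16980274 and 28636467 counts were deposited for each control liver and between 23704607 and 33091460 for each NASH liver. Levels are given as CPM, the count of a gene relative to the TMM-scaled library total. The TMM factors of the control libraries were 0.804 to 0.875 and those of the NASH libraries 1.12 to 1.24. CPM values compare 1 gene between animals, not different genes, because they are not divided by gene length. The summed level of 10 of 12 hepatocyte markers was 113000 to 145600 CPM in controls and 46240 to 74690 CPM in NASH, and 9 of the 10 were lower. All 11 stellate cell and myofibroblast markers were found, 9 of them higher, and their sum was 746.1 to 891.1 CPM in controls and 1709 to 3364 CPM in NASH. Of 9 cholangiocyte markers, 7 were found and 5 were higher, and all 9 endothelial markers were found with 3 higher and 2 lower. For T cells 8 of 9 markers were found, with 2 higher and 1 lower. Erythroid markers were found for 6 of 8, each called higher. Among these 6, *SLC4A1* and *KLF1* had control means of 0.685 and 0.498 CPM, with at most 51 and 20 counts in any control. Their calls may therefore be partly set by the filter on total counts described below. The erythroid sum was 58.6 to 175.8 CPM in controls, 437.4 to 734.8 CPM in 4 NASH animals, 4597 CPM in NASH animal 41 and 3328 CPM in NASH animal 65, so the last 2 libraries stood apart from the rest. Of 19 macrophage markers, 14 were found, with sums of 581.5 to 1079 CPM in controls and 1362 to 1773 CPM in NASH. Most of that rise lay in *GPNMB*, a marker of lipid-laden macrophages that was singled out after its values were seen, with means of 54.0 CPM in controls and 498.4 CPM in NASH. Without it the sum of the other 13 markers was 567.4 to 1010 CPM in controls and 914.4 to 1212 CPM in NASH, with overlap between the groups. In such bulk tissue, fewer cells of a type and less RNA per cell cannot be told apart, and the part of these cell markers in the changes below was not tested, apart from the relations to the macrophage sum given further on.

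The table holds genes with a total of at least 200 counts, and *STAR*, with 612 counts in NASH and 0 in controls, was in it through its NASH counts alone. Its call and its separation between groups are therefore partly set by that filter, and it is left out of the following counts. The other 8 members all passed the test at an adjusted p under 0.05 (edgeR quasi-likelihood test, Benjamini-Hochberg over all 11896 genes). In NASH 5 of them rose (*NPC1*, *NPC2*, *LIPA*, *ABCA1* and *ABCG1*) and 3 fell (*SOAT1*, *ABCG5* and *ABCG8*). Over all genes, 53.9% passed the same test, 27.9% as higher and 26.0% as lower. The 6 animals of 1 group did not overlap with those of the other for 4 of the members that rose and for 1 of those that fell, *ABCG8*. Such separation was seen for 33.7% of all genes, 18.4% in the upward direction and 15.3% in the downward one. The median log2 fold change of the 8 members was 0.49, against 0.002 for all genes. A log2 fold change of 1 or more in either direction, together with a call, was seen for 3 members (*LIPA*, *ABCA1* and *ABCG1*) and for 18.1% of all genes.

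**Figure D1:**
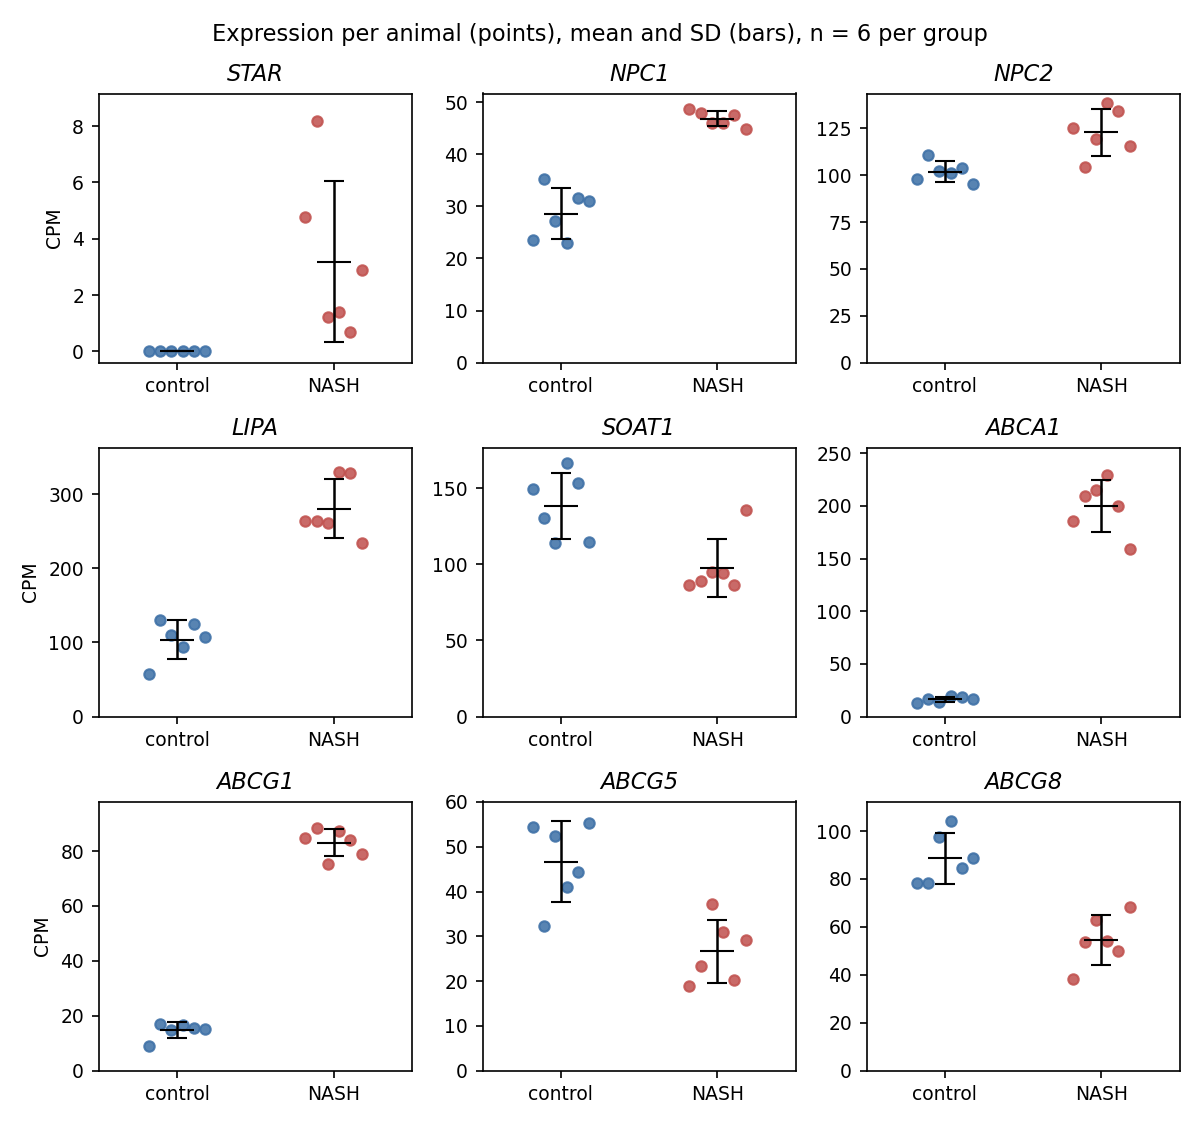
Level of each of the 9 members in every animal, in TMM-scaled CPM on a linear axis of its own per gene, with 1 point per animal and bars for the group mean and SD; *STAR* had 0 counts in every control. *ABCA1*, *ABCG1*, *LIPA* and *NPC1* were separated upward and *ABCG8* downward, while *NPC2*, *SOAT1* and *ABCG5* overlapped between groups. The separation of *STAR* is partly set by the filter on total counts, which it passed through its NASH counts alone.

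The efflux transporters showed the largest measured folds among the members with counts in both groups. *ABCA1*, which loads cholesterol and phospholipid onto lipid-poor apolipoprotein A-I, lay between 12.9 and 19.7 CPM in the controls, with a median of 16.9, and between 159.6 and 229.5 CPM in NASH, with a median of 204.7. The lowest NASH animal was thus far above the highest control. Mean levels were 16.5 ± 2.58 CPM (SD, n = 6) and 199.9 ± 24.6 CPM (SD, n = 6), a 12.1-fold rise. The log2 fold change was 3.59 (SE 0.13, 95% interval 3.32 to 3.87, adjusted p = 3.54e-09 from edgeR), which ranked 167 from the top among the 11896 genes. *ABCG1*, which passes sterol on to mature HDL, lay between 9.0 and 17.1 CPM in controls, with a median of 15.4, and between 75.2 and 88.5 CPM in NASH, with a median of 84.3. Its group means were 14.7 ± 2.93 and 83.1 ± 5.06 CPM (SD, n = 6 each), a 5.63-fold rise. That corresponded to a log2 fold change of 2.49 (SE 0.13, 95% interval 2.21 to 2.78, adjusted p = 6.86e-08 from edgeR) and rank 398. The NASH animals were close to each other for *ABCG1*, and the control with the lowest value was animal 5.

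The sterol transporters of the bile canaliculus moved in the opposite direction. *ABCG5* lay between 32.4 and 55.3 CPM in controls, with a median of 48.4, and between 18.9 and 37.3 CPM in NASH, with a median of 26.3. The groups overlapped because control animal 10, at 32.4 CPM, was below NASH animal 11, at 37.3 CPM. Its mean fell from 46.7 ± 9.04 to 26.7 ± 7.04 CPM (SD, n = 6 each), with a log2 fold change of -0.81 (SE 0.18, 95% interval -1.20 to -0.42, adjusted p = 0.0022 from edgeR). *ABCG8*, the partner subunit, lay between 78.2 and 104.4 CPM in controls, with a median of 86.7, and between 38.2 and 68.1 CPM in NASH, with a median of 54.0. No NASH animal reached the lowest control. The mean fell from 88.6 ± 10.6 to 54.5 ± 10.5 CPM (SD, n = 6 each), with a log2 fold change of -0.70 (SE 0.13, 95% interval -0.98 to -0.42, adjusted p = 0.000525 from edgeR). Hepatocytes are the liver cells known for this heterodimer, and the summed hepatocyte markers given above were also lower in every NASH animal than in any control.

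*SOAT1*, which esterifies cholesterol in the endoplasmic reticulum, was lower in NASH. Controls lay between 114.3 and 166.2 CPM, with a median of 139.9, and NASH animals between 86.2 and 135.7 CPM, with a median of 91.5. Of the NASH animals, 5 were at or below 95.1 CPM and thus under every control, and animal 65 alone stood within the control range at 135.7 CPM. Means were 138.1 ± 21.5 and 97.8 ± 19.0 CPM (SD, n = 6 each), with a log2 fold change of -0.50 (SE 0.13, 95% interval -0.79 to -0.21, adjusted p = 0.00633 from edgeR), or -0.62 without NASH animal 65. Beside its erythroid sum of 3328 CPM, animal 65 also had the highest hepatocyte marker sum of the NASH group, 74690 CPM, and the lowest stellate cell sum, 1709 CPM, and the part of these in its *SOAT1* level was not tested. Leaving out NASH animals 41 and 65 together, a choice made after seeing the data, gave -0.61 for *SOAT1*, and each of the 8 members kept its direction and call.

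The calls of the 3 members that fell depended on the scaling between livers. Scaled by library size alone, the median gene itself stood at a log2 fold change of 0.48. The log2 fold changes were then -0.03 for *SOAT1* (adjusted p = 0.845 from edgeR), -0.34 for *ABCG5* (adjusted p = 0.103) and -0.24 for *ABCG8* (adjusted p = 0.0991), and none passed. Relative to that median gene they were -0.50, -0.81 and -0.71, close to the values with TMM factors, which follows from the change of scaling moving all genes by about the same amount. The 5 members that rose passed under either scaling. Library size alone moved all genes upward, so this was no test of their calls.

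The lysosomal members rose to different degrees. *LIPA*, the acid lipase whose human deficiency causes Wolman disease and cholesteryl ester storage disease, lay between 56.9 and 129.8 CPM in controls, with a median of 108.6, and between 234.0 and 329.9 CPM in NASH, with a median of 263.9. The groups were separated by more than the whole range of the controls. The mean rose from 103.8 ± 26.3 to 280.1 ± 39.5 CPM (SD, n = 6 each), or 2.70-fold, with a log2 fold change of 1.43 (SE 0.17, 95% interval 1.06 to 1.81, adjusted p = 2.1e-05 from edgeR). *NPC1*, the membrane protein that receives sterol in the lysosome, lay between 23.0 and 35.2 CPM in controls, with a median of 29.1, and between 44.9 and 48.6 CPM in NASH, with a median of 46.8. The means were 28.6 ± 4.83 and 46.8 ± 1.41 CPM (SD, n = 6 each), with a log2 fold change of 0.71 (SE 0.10, 95% interval 0.49 to 0.93, adjusted p = 6.98e-05 from edgeR). The coefficient of variation of *NPC1* was 16.9% among controls and 3.02% among NASH animals. *NPC2*, the soluble carrier that delivers sterol to NPC1, moved least of the 9 members. It lay between 95.3 and 111.1 CPM in controls and between 104.6 and 138.5 CPM in NASH, where animal 9, the lowest, stood inside the control range. Means were 102 ± 5.44 and 122.9 ± 12.5 CPM (SD, n = 6 each), with a log2 fold change of 0.27 (SE 0.08, 95% interval 0.11 to 0.43, adjusted p = 0.00837 from edgeR).

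*STAR* was the member with the widest spread. Its count was 0 in all 6 control livers and 140, 280, 37, 45, 27 and 83 in NASH animals 2, 9, 11, 20, 41 and 65. In the same order these were 4.76, 8.18, 1.21, 1.40, 0.689 and 2.91 CPM, a mean of 3.19 ± 2.86 CPM (SD, n = 6) and a coefficient of variation of 89.5%. All 6 NASH livers thus held *STAR* reads, with animal 9 highest and animal 41 lowest. A count of 0 allows up to 3 counts, which was up to 0.214 CPM, in control animal 5. Against this floor per library the NASH mean was at least 14.9-fold higher, and single NASH animals were at least 3.21-fold to at least 38.1-fold higher. No p is given for *STAR*, because it had to differ between groups to be in the table. The floor covers counting error only. The deposited log2 values, made with a transformation that shrinks low counts, showed *STAR* at 4.26 to 4.29 in controls and 4.55 to 5.81 in NASH, a difference in means of 0.80. None of 9 adrenal cortex markers, *CYP11A1* among them, had a row in the table, so the presence of their transcripts could not be read from it.

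**Figure D2:**
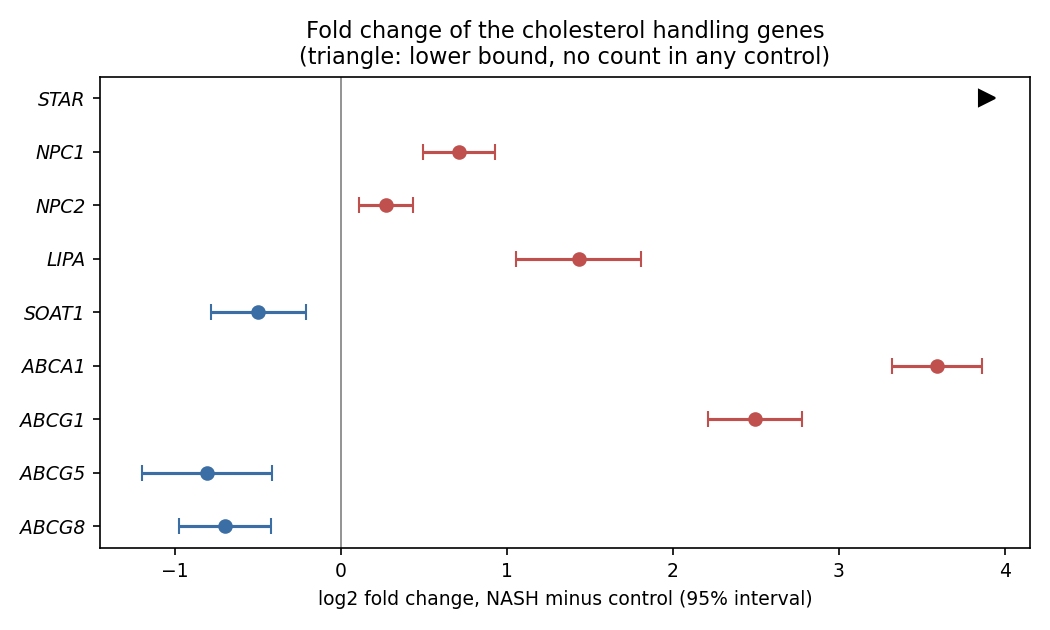
Log2 fold change of each member, NASH against control, with its 95% interval from edgeR; for *STAR*, whose controls were all at 0, the lower bound of 3.90 against a floor of 3 counts per library is drawn instead. Intervals of the 3 members that fell lie below 0, and *ABCA1* has the highest measured fold change at 3.59.

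Pairs of members that act together or in opposing steps were compared within each animal as log2 ratios of CPM, which need no scaling between libraries. Of 5 pairs, 4 could be formed, and the pair of *SOAT1* and *SOAT2* could not. Differences were tested by a two-sided exact permutation test over all 924 splits of the 12 animals, whose smallest p is 0.00216, and adjusted over the 4 ratios. The ratio of *ABCA1* to *ABCG1* rose by 1.08 on the log2 scale (95% interval 0.82 to 1.32, exact p = 0.00216, adjusted 0.00289), from 0.18 ± 0.20 to 1.26 ± 0.18 (SD, n = 6 each). Thus *ABCA1* gained 2.11-fold over *ABCG1*, and the groups did not overlap. The ratio of *NPC1* to *NPC2* rose from -1.85 ± 0.22 to -1.39 ± 0.16 (SD, n = 6 each), a difference of 0.46 (95% interval 0.21 to 0.72, exact p = 0.00216, adjusted 0.00289), again without overlap. The ratio of *LIPA* to *SOAT1*, a lysosomal ester hydrolase against an ester-forming enzyme, went from -0.45 ± 0.55 to 1.53 ± 0.40 (SD, n = 6 each). This was a difference of 1.97 (95% interval 1.36 to 2.59, exact p = 0.00216, adjusted 0.00289), or 3.92-fold, and every NASH animal had a higher ratio than every control. Its direction follows from *LIPA* having been called higher and *SOAT1* lower, so it is not a separate result. *SOAT2*, the other ester-forming enzyme, had no row. For the heterodimer the ratio of *ABCG5* to *ABCG8* was -0.94 ± 0.32 in controls and -1.05 ± 0.23 in NASH (SD, n = 6 each). The difference of -0.11 (95% interval -0.46 to 0.25, exact p = 0.507) was within the spread between animals, and the groups overlapped.

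**Figure D3:**
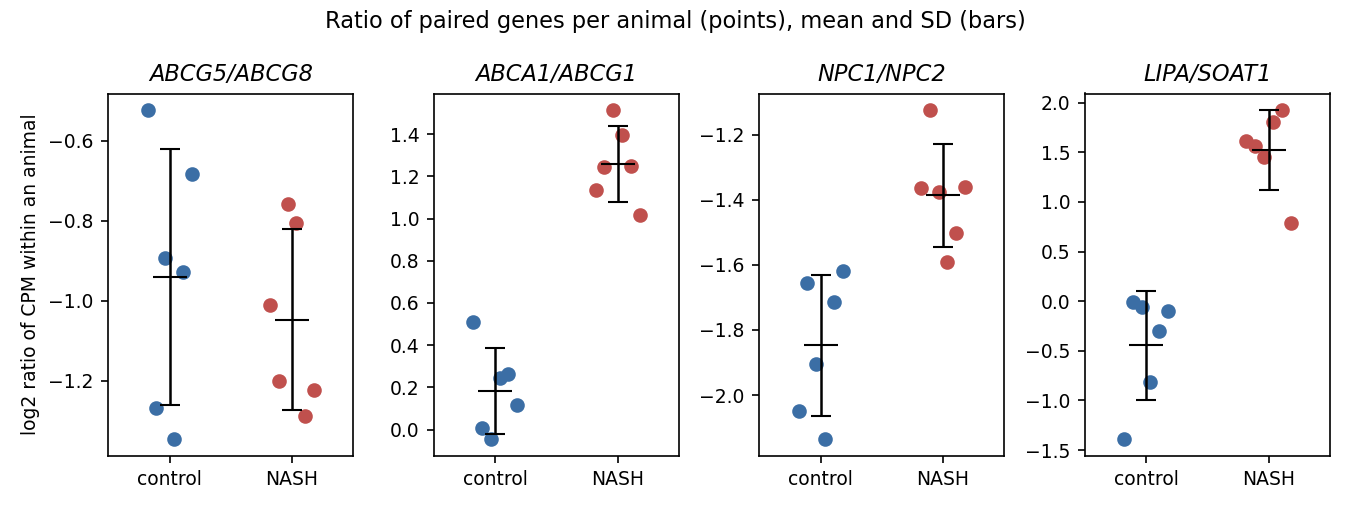
Log2 ratio of 2 members within each animal, for the 4 pairs, with 1 point per animal and bars for the group mean and SD, on an axis of its own per pair. The groups are apart for *ABCA1* to *ABCG1*, *NPC1* to *NPC2* and *LIPA* to *SOAT1*, and they overlap for *ABCG5* to *ABCG8*.

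Within groups, the same 4 pairs were correlated over the 6 animals, giving 8 relations with exact permutation p-values over 720 pairings. *ABCG5* and *ABCG8* had r = 0.80 (exact p = 0.0458, adjusted 0.183) and rho = 0.83 (exact p = 0.0583) in NASH, and r was 0.63 without the 2 animals farthest from the median. In controls the same genes had r = 0.15 (exact p = 0.778). *ABCA1* and *ABCG1* had r = 0.81 (exact p = 0.0222, adjusted 0.178) in controls, which dropped to 0.23 without the 2 farthest animals and so rested on those. In NASH their r was 0.31 (exact p = 0.558). No relation of *NPC1* with *NPC2* or of *LIPA* with *SOAT1* had an exact p under 0.05, and none of the 8 passed after adjustment.

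Macrophages are rich in *LIPA*, *NPC1*, *ABCA1* and *ABCG1*, so the members were also set beside the summed macrophage markers of each animal, both on the log2 scale. Of the 14 markers found, 6 were higher in NASH, 2 lower and 6 without a call. Among the higher, *TREM2* had at most 9 counts in any control and was in the table through its NASH counts, so its call is partly set by that filter. Rows for *CD163*, *VSIG4*, *TIMD4*, *ADGRE1* and *LYZ* were not found. Across the 6 controls, *LIPA* followed the macrophage sum with r = 0.989 (exact p = 0.00278, adjusted 0.0472 over 17 relations) and rho = 0.943 (exact p = 0.0167, adjusted 0.142), and r was 0.897 without the 2 animals farthest from the median. In NASH, r was 0.79 (exact p = 0.0806, adjusted 0.274), and 0.564 without the 2 farthest animals. Control animal 5 had both the lowest *LIPA*, 56.9 CPM, and the lowest macrophage sum, 581.5 CPM. Without *GPNMB* in the sum, a choice made after seeing the data, r for *LIPA* was 0.983 in controls (exact p = 0.00278, adjusted 0.0472) and 0.593 in NASH (exact p = 0.203). For *NPC1* r was 0.842 in controls (exact p = 0.0139, adjusted 0.118) and 0.369 in NASH (exact p = 0.483). *ABCG1* had r = 0.873 in controls (exact p = 0.0778) and 0.321 in NASH (exact p = 0.556), and *ABCA1* 0.551 (exact p = 0.254) and 0.17 (exact p = 0.717). *NPC2* had 0.569 in controls (exact p = 0.242) and 0.771 in NASH (exact p = 0.0667). In the same order r was -0.428 and -0.52 for *SOAT1*, -0.506 and -0.561 for *ABCG5*, and 0.063 and -0.549 for *ABCG8*. Of the 17 relations, that of *LIPA* in controls was the one to pass after adjustment, by r and not by rho. These relations were computed after the levels had been seen, and all values of an animal come from 1 library.

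**Figure D4:**
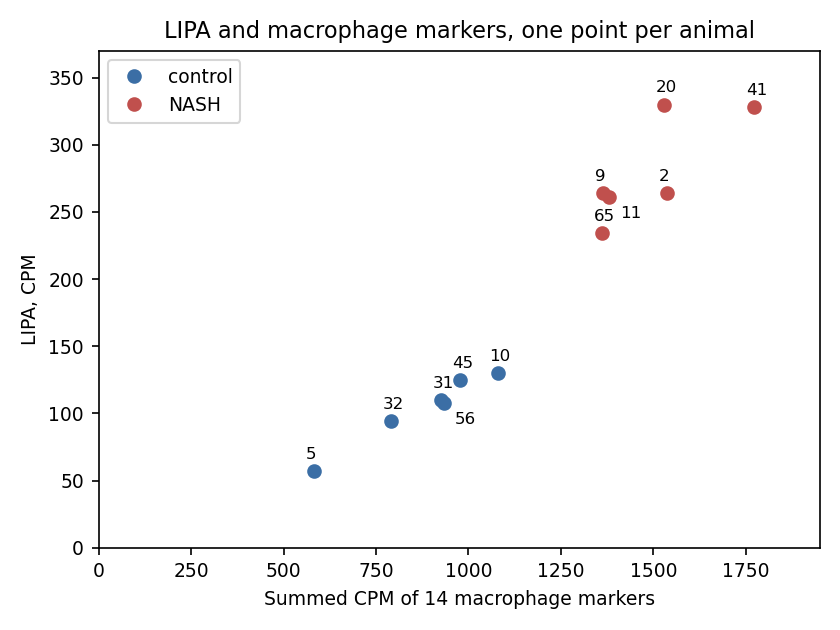
*LIPA* level against the summed level of 14 macrophage markers in each animal, both in TMM-scaled CPM, with controls in blue, NASH animals in red and animal numbers beside the points. Both values are higher in every NASH animal than in any control, and control animal 5 is lowest on both axes; without *GPNMB* the marker sums of the groups overlap.

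The other genes of the pathway were read from lists of related genes. Of 22 lysosomal and endoplasmic reticulum sterol transfer proteins, 16 were found, with 8 higher, 3 lower and 5 without a call, and a median log2 fold change of 0.21. By library size alone these counts were 11 higher and 2 lower. Without NASH animal 2, or at an adjusted p under 0.01, they were 4 higher and 3 lower. *GRAMD1B*, a sterol transfer protein between plasma membrane and endoplasmic reticulum, had the highest fold change among those called. It went from 3.57 ± 1.57 to 12.2 ± 3.09 CPM, a log2 fold change of 1.75 (adjusted p = 0.000161 from edgeR). *STARD4*, a soluble sterol carrier of the same family as *STAR*, had the lowest, from 12.0 ± 3.4 to 5.67 ± 1.21 CPM, a log2 fold change of -1.08 (adjusted p = 0.000431 from edgeR). *STARD3*, which transfers sterol from late endosomes and shares its count row with another symbol, rose by a log2 fold change of 0.31 (adjusted p = 0.032 from edgeR). *STARD5* had -0.34 without passing (adjusted p = 0.184 from edgeR). *STARD3* and *STARD4* thus moved in different directions.

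Of 15 steroidogenic partners of *STAR*, 6 were found, none higher and 3 lower, where 26.0% of all genes were called lower. *CYP11A1*, *CYP11B1*, *CYP17A1*, *CYP21A2*, *HSD3B1*, *HSD3B2*, *NR5A1*, *NR5A2* and *VDAC1* had no row. The count therefore says nothing about the steroid-forming enzymes among them. The called genes were *FDX1*, at 114.8 ± 15.3 and 63.3 ± 3.92 CPM (log2 fold change -0.86, adjusted p = 4.97e-06 from edgeR), the ferredoxin reductase *FDXR* (-0.41) and the mitochondrial sterol hydroxylase *CYP27A1* (-0.48). Ferredoxin and its reductase supply electrons to mitochondrial cytochromes P450, including that of *CYP27A1*. By library size alone this list had 2 higher and 1 lower.

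All 11 genes listed under cholesteryl ester hydrolysis and storage were found, with 2 higher, 6 lower and 3 without a call. Among the lower were *ACAT1* (log2 fold change -0.74) and *ACAT2* (-0.78), which under these symbols encode acetyl-CoA acetyltransferases. They, *DGAT1* and *DGAT2* do not act on cholesteryl ester, so the count does not describe that pathway alone. *PLIN2*, the lipid droplet coat protein, rose from 41.8 ± 14 to 150.1 ± 38.6 CPM (log2 fold change 1.84, adjusted p = 5.08e-05 from edgeR). *NCEH1*, a neutral cholesteryl ester hydrolase, rose from 29.0 ± 11.6 to 55.2 ± 18.6 CPM (0.93, adjusted p = 0.0156 from edgeR), with overlap between groups. *DGAT2*, which makes triglyceride, had the lowest fold change among those called, -1.19 (adjusted p = 2.56e-05 from edgeR). *LCAT*, the plasma enzyme that esterifies cholesterol on HDL, fell from 414 ± 29.5 to 222.1 ± 36.0 CPM (-0.90, adjusted p = 1.17e-05 from edgeR). By library size alone the list had 3 higher and 5 lower.

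Of 14 genes of HDL formation and reverse cholesterol transport, 12 were found. Of the 11 that were in the table through both groups, 1 was higher and 8 were lower, or 2 higher and 3 lower by library size alone. *APOA1*, the protein that accepts cholesterol from ABCA1, had 163.7 ± 50.8 CPM in controls and 92.1 ± 56.6 CPM in NASH without passing (log2 fold change -0.83, adjusted p = 0.0597 from edgeR). *APOA2* had the lowest fold change among those called, -2.02 (adjusted p = 9.71e-07 from edgeR), from 788.7 ± 154.1 to 195 ± 44.6 CPM. *APOE* was at 9302 ± 711.7 and 8307 ± 1122 CPM and did not pass (-0.16, adjusted p = 0.204 from edgeR). *SCARB1*, the HDL receptor, had -0.34 (adjusted p = 0.0275 from edgeR) with overlapping groups. *ABCA7*, the highest of the called genes both in this list and among other ABCA and ABCG transporters, had 19 counts over all controls and 294 over all NASH animals. Like *STAR* it was in the table through its NASH counts, so it is not counted, and its fold change and p are not given.

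The LXR receptors themselves moved apart. *NR1H3* (LXR alpha), the form abundant in hepatocytes and macrophages, fell from 158 ± 20.7 to 66.8 ± 11.7 CPM (log2 fold change -1.24, adjusted p = 3.94e-06 from edgeR). *NR1H2* (LXR beta), the ubiquitous form, rose from 17.5 ± 1.95 to 22.9 ± 1.71 CPM (0.39, adjusted p = 0.00189 from edgeR). Of 16 LXR receptors, partners and targets, 12 were found, with 7 higher, 2 lower and 3 without a call, or 9 higher and 2 lower by library size alone. The highest was *LPL*, lipoprotein lipase, at 2.58 ± 0.65 CPM in controls and 51.9 ± 6.64 CPM in NASH (4.33, adjusted p = 6.57e-09 from edgeR), and the lowest was *NR1H3*. The 4 members that are LXR targets were split, with *ABCA1* and *ABCG1* higher and *ABCG5* and *ABCG8* lower. Among 13 other ABCA and ABCG transporters, 7 were found. Without *ABCA7* and *ABCA4*, which would not have reached 200 counts with both groups at the control level, 1 of 5 was higher and 2 were lower, or 3 higher and 1 lower by library size alone. *ABCA2*, a transporter of late endosomes, had the lowest fold change of the called genes (-1.32, adjusted p = 0.0291 from edgeR), with overlapping groups. Its call is lost at an adjusted p under 0.01, where 1 gene of the list was lower. The list also had 1 lower when control animal 31, 32 or 45 or NASH animal 2 or 9 was left out.

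**Figure D5:**
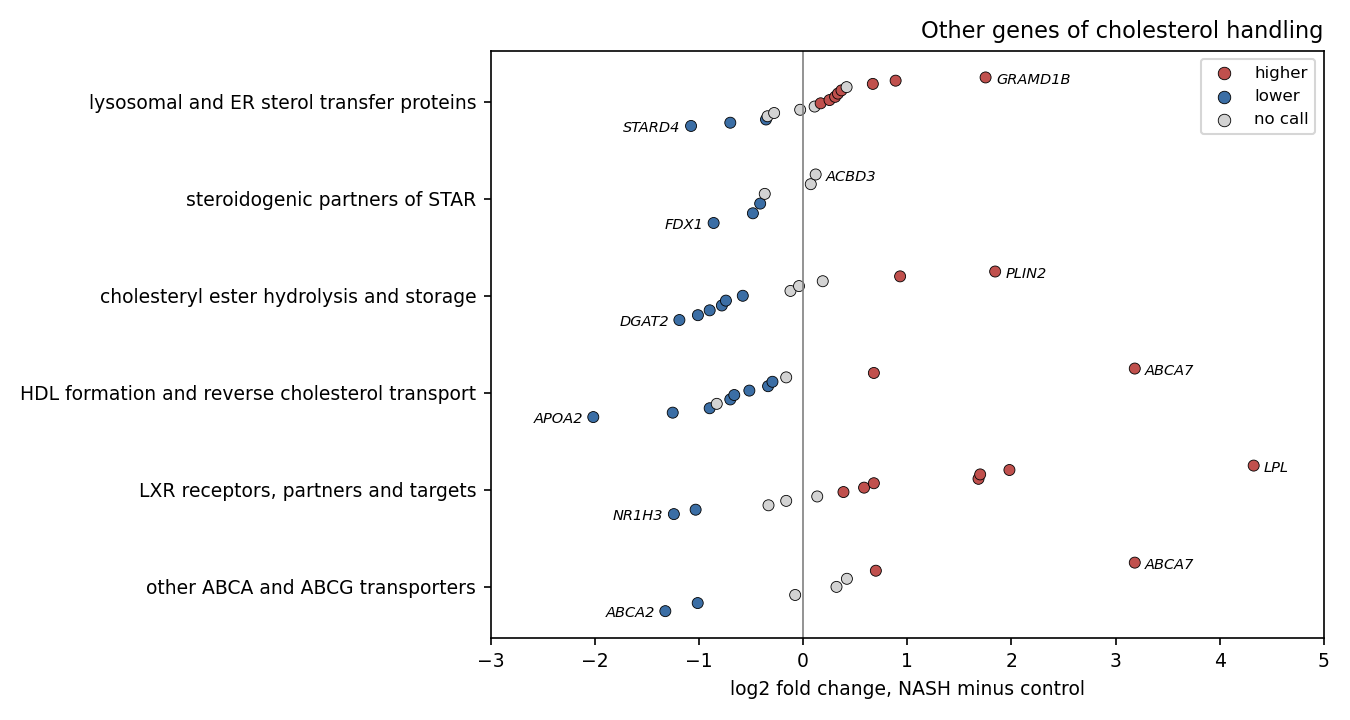
Log2 fold change, NASH against control, of every gene found in the 6 lists of related genes, 1 point per gene, coloured red where called higher, blue where called lower and grey without a call, with the highest and lowest gene of each list named. With TMM factors and all animals, the sterol transfer and LXR lists hold more genes called higher than lower. The HDL, steroidogenic partner and ester lists hold more called lower, the last counting *ACAT1*, *ACAT2* and *DGAT2*, which do not act on cholesteryl ester. By library size alone the steroidogenic partners had 2 higher and 1 lower. Without NASH animal 2 the sterol transfer list had 4 higher and 3 lower. Over all genes 27.9% were called higher and 26.0% lower.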

How the data were processed

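Liver RNA of 12 guinea pigs was sequenced, and groups were taken from the sample labels. Per the study's methods and the submitters' processing notes, the authors trimmed reads with Trimmomatic 0.38.0, mapped them with HISAT2 2.1.0 to Cavpor3.0, ignored multimapped reads and assembled and quantified transcripts with StringTie 1.3.6. Deposited were raw counts per locus, and log2 values from the rlog transformation of DESeq2 for genes with a human orthologue symbol and a total of at least 200 counts. Because the deposited counts are listed by locus only, symbols were assigned to them by recomputing the rlog in DESeq2 1.42.0 and matching values. All 11896 symbols were matched, with a largest difference of 8.35e-07, and no member shared its row with another symbol. Deposited coordinates were not used, and no sequence is given.

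Counts were tested in R 4.3.3 with edgeR 4.0.16 (TMM, glmQLFit with robust estimation, glmQLFTest), with Benjamini-Hochberg adjustment over 11896 genes and a threshold of 0.05. The library size was the total of the whole count table. SE is the absolute log2 fold change over the square root of F. Scripts were tested on simulated counts. Ratios used log2 CPM with a prior count of 2. Alternatives were other scalings, filters, tools (DESeq2, limma 3.58.1), thresholds and leaving out each animal. Named were all members, the direct partners, and of each list the called genes with the highest and lowest fold change. The members, lists and partners were chosen with earlier results of these data known. With 1 library per animal, p-values measure the spread between animals.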

Additional observations from a re-analysis of the deposited data

Results flagged for a closer look

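Of 25 groups of 6 animals checked for a single outlying value, 2 held one, and chance alone flags about 1 in 20 groups. *SOAT1* in NASH was at 135.7 CPM in animal 65, with the next animal at 95.1 CPM, a gap of 0.820 of the whole range of the group. The same animal had an erythroid marker sum of 3328 CPM, against 437.4 to 734.8 CPM in 4 others of its group and 4597 CPM in animal 41, whose *SOAT1* was 86.2 CPM. It also had the highest hepatocyte marker sum of the group, 74690 CPM. Their part in the *SOAT1* value was not tested. Without animal 65 the log2 fold change of *SOAT1* was -0.62. *ABCG1* in controls was at 9.0 CPM in animal 5, with the next animal at 14.8 CPM, a gap of 0.713 of the range. Control animal 5 also had the lowest *LIPA* and macrophage marker sum of the controls.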

How the results depend on the processing

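*STAR* is left out of the members' counts here too. By library size alone, *SOAT1* had a log2 fold change of -0.027, *ABCG5* -0.34 and *ABCG8* -0.24, none of them passing, so 0 members were lower. The same scaling called 7603 of all genes higher and 911 lower, 89.3% of calls higher against 51.75% with TMM factors. Its lists had 2 steroidogenic partners higher and 1 lower, 3 HDL genes lower, and 4 other transporters, *ABCA7* among them, higher and 1 lower. Testing every row with at least 1 count gave 6192 higher and 5080 lower, and filterByExpr 5280 and 4990, with more rows tested in each. Testing for changes beyond 1 on the log2 scale left 853 genes higher and 247 lower and 0 members lower, since *NPC1* (0.71), *NPC2* (0.27), *SOAT1* (-0.50), *ABCG5* (-0.81) and *ABCG8* (-0.70) did not reach it. RLE and upper-quartile factors, DESeq2, limma-voom and an adjusted p under 0.01 called the 8 members in the same direction. The correlation of *ABCG5* and *ABCG8* in NASH was 0.80 with the deposited log2 values (exact p = 0.05) and 0.63 without the 2 farthest animals. Without them that of *ABCA1* and *ABCG1* was 0.23 in controls and -0.41 in NASH, where the sign turned. The cause was not tested.

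Leaving out each animal in turn kept 5 of the 8 members higher and 3 lower, with 3123 to 3290 of all genes higher and 2894 to 3074 lower. Log2 fold changes ranged from 0.23 to 0.31 for *NPC2*, from 1.31 to 1.51 for *LIPA*, from -0.62 to -0.44 for *SOAT1*, from 3.53 to 3.65 for *ABCA1* and from -0.93 to -0.73 for *ABCG5*. The highest adjusted p of any of the 8 members was 0.0219, for *NPC2* without NASH animal 41 (edgeR). With NASH animals 41 and 65 both left out, a choice made after seeing the data, 5 members were higher and 3 lower, and 3005 and 2867 of all genes. The study's methods state that animals were randomised in blocks by body weight. The sample labels name no blocks, so no paired or blocked analysis was made. Depth limits *STAR* alone among the members, whose controls had no counts.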
